A study of Mus musculus with 12 samples.

Results

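The Tex and Spata genes take their names from testis (testis expressed) and from spermatogenesis (spermatogenesis associated). Taken here were the protein-coding rows of the deposited table whose symbol is Tex or Spata followed by a number, apart from Tex11, Tex12, Tex15 and Spata22. This gave 54 genes, 30 Tex and 24 Spata, of 55487 rows, of which 21897 were protein-coding. Among all rows 59 symbols had the form, 4 were left out by name and 1, Spata5l1, is not annotated as protein-coding. No expression value entered the choice.

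RNA was sequenced from germ cells of the male mouse testis at 4 stages with 3 libraries each, 12 in all. Of these stages E13.5 and E16.5 are counted in days of embryonic life, P0 is birth, and P3 is 3 days later. Every mouse carried the Mvh-Venus transgene, in which the germ cell gene Mvh (also called Ddx4) drives a fluorescent protein, and no strain is given. The titles call all 12 libraries WT, whereas the genotype tag reads Morc1 (+/-) at E13.5 and P0 and Morc1 (-/-) at E16.5 and P3, so each comparison of consecutive stages also crosses that tag and the 2 cannot be told apart there. Only 2 of the comparisons used here, P0 against E13.5 and P3 against E16.5, are between stages with the same tag. Nothing says that libraries came from separate animals, so the p-values measure only the spread between these libraries, which may be technical.

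The male germ cells of these stages are gonocytes, also called prospermatogonia. They stop dividing in the fetal testis, pass through a long arrest in which DNA methylation is laid down again and transposons are silenced, and resume division shortly after birth. Meiosis and the building of sperm come later in postnatal life, so many Tex and Spata proteins are best known for work in spermatocytes, spermatids and sperm, while others act in most cell types and carry only the name of the tissue in which they were found.

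Libraries held 40946616 to 51533747 reads assigned to genes, and the level given below is the normalized count, the reads of a gene divided by the size factor of its library. One gene's level was ranked against another's only per kilobase (kb) of exon, whereas thresholds and sums over lists are of normalized counts. Statements on which libraries of a gene were high or low hold for the scaling of the file. All 8 germ cell markers were above 3 reads in every stage and summed to between 152475 and 297710 per library, with Ddx4, an RNA helicase of germ cells, between 22151 and 62737. Lists of other cell types had lower sums and moved with stage: 7 Sertoli cell markers summed to 1857 to 2827 (E13.5), 3396 to 7066 (E16.5), 11567 to 22000 (P0) and then 4882 to 6686 (P3), and 6 Leydig cell markers summed to 573 to 729, 623 to 7763, 1133 to 6201 and 179 to 267 in the same order. In that order 5 peritubular cell markers summed to 120 to 136, 1279 to 1774, 2679 to 2908 and 915 to 1060, and 5 blood cell markers to 66.3 to 382, 1735 to 2362, 1565 to 2447 and 302 to 525. The sum of 6 markers of macrophages and endothelium was instead highest at E13.5 (4413 to 5150, of which Pecam1 averaged 4618). It was 1352 to 1422, 744 to 904 and 743 to 908 later. A change was called at an adjusted p under 0.05 in limma's moderated test. By single marker, 5 of the 6 rose and 1 fell at E16.5 against E13.5, beside 45.5% and 34.6% of all genes tested. The median log2 fold change of the 6 was 3.64, beside 0.31 over all genes tested. Morc1 itself was at 1621 to 1830 (E13.5), 28328 to 32917 (E16.5), 7279.9 to 7708 (P0) and then 10584 to 11129 (P3). In bulk RNA, fewer cells of a type and less RNA per cell cannot be told apart. Size factors averaged 0.939 (E13.5), 1.13 (E16.5), 1.94 (P0) and then 1.01 (P3), so a value at P0 depends more on the scaling than one at another stage. Median-of-ratios factors were 0.815 times those of the file at P0, and factors for equal library totals were 0.629 times.

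The 54 genes ranged from undetected to very abundant, and most changed with stage. In 25 of them the highest stage mean was at least 100 normalized counts, in 15 at least 1000 and in 7 at least 10000, these being Tex10, Tex14, Tex19.1, Tex19.2, Tex30, Tex101 and Spata5. At the other end, Tex29 had at most 3 reads in every library of every stage. Of the 54 genes, 40 passed the filter, 10 or more normalized counts in 3 or more libraries. The 14 that did not were Tex22, Tex24, Tex29, Tex33, Tex36, Tex38, Tex43, Tex46, Tex47, Spata25, Spata31, Spata32, Spata45 and Spata46, and several low genes passed only through the stage where they were high, so counts over the 40 are descriptions.

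**Figure D1:**
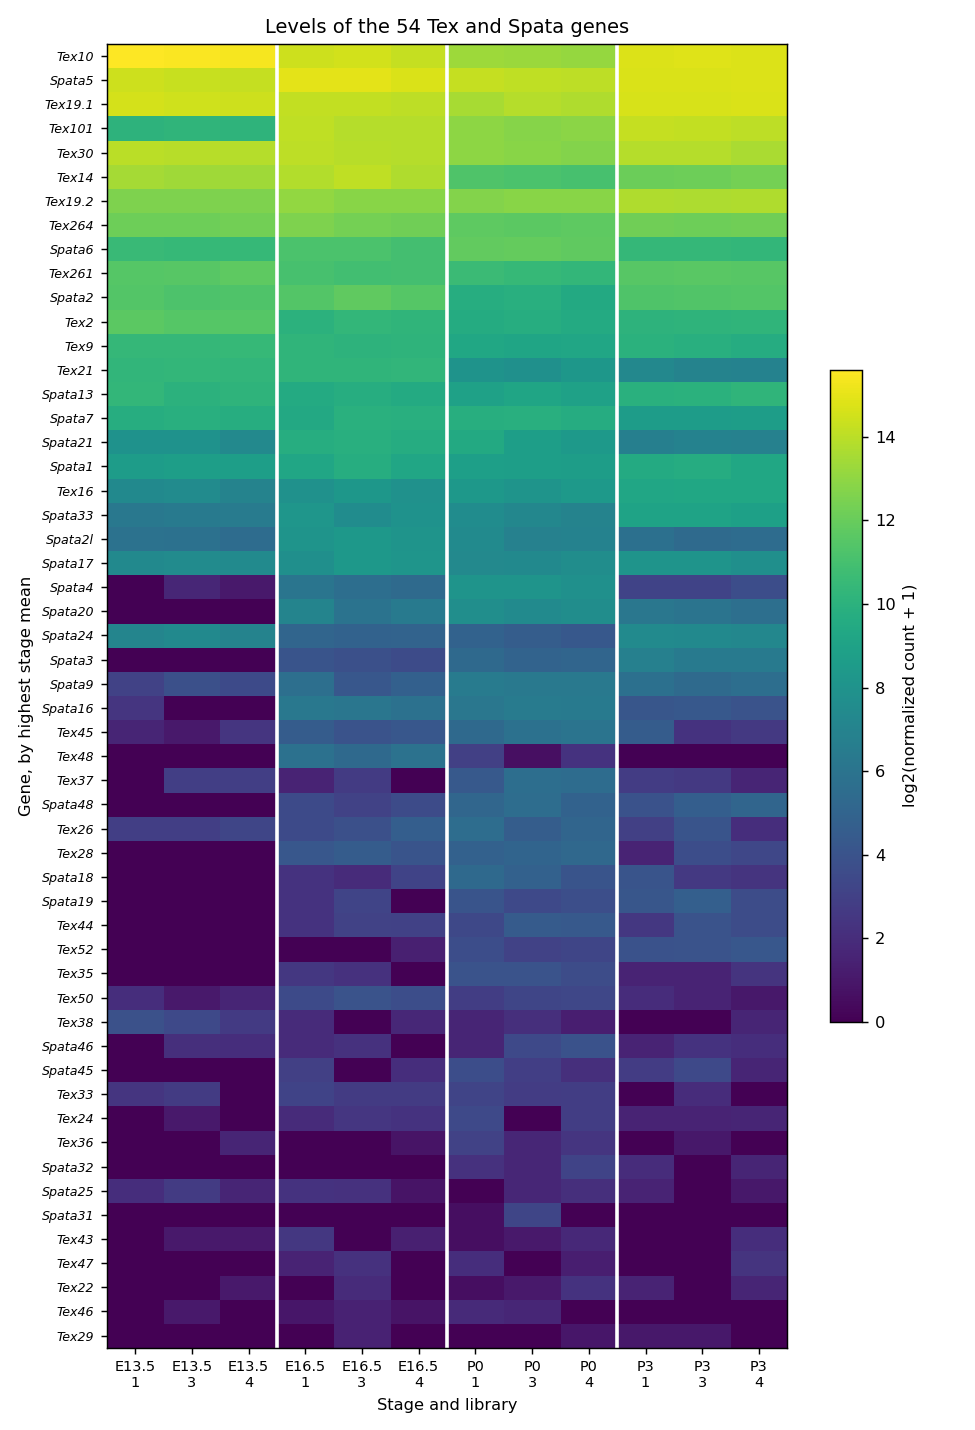
Level of each of the 54 Tex and Spata genes (rows, ordered by highest stage mean) in each of the 12 libraries (columns, 3 per stage), as log2(normalized count + 1). The upper rows are filled in every stage, whereas many lower rows are dark at E13.5 and lighter at P0, where 1 member had at most 3 reads in all 3 libraries against 23 at E13.5.

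A gene was called when its adjusted p was under 0.05 in limma's moderated test over all 22384 genes that passed the filter. At E16.5 against E13.5, 34 of the 40 tested members were called, beside 80.1% of all genes tested, 27 of them higher (45.5% of all genes) and 7 lower (34.6%). At P0 against E16.5, 32 were called beside 61.0% of all genes, 13 higher (27.6%) and 19 lower (33.4%). At P3 against P0, 35 were called beside 76.5% of all genes, 19 higher (40.1%) and 16 lower (36.4%). In the test among the 4 stages all 40 were called, beside 95.2% of all genes. Called with an absolute log2 fold change of 1 or more were 21, 20 and 25 members in the 3 comparisons, beside 59.7%, 34.0% and 54.7% of all genes. The libraries of both stages did not overlap in 32, 34 and 37 of the 40, beside 80.2%, 69.5% and 81.0%. Most genes of the table thus differed between stages, and what sets members apart from one another is the stage at which each was high and by how much.

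The median log2 fold change of the tested members was 0.71 at E16.5 against E13.5, or 0.60 with 11 genes that were at the read floor at their lower bounds, beside 0.31 over all genes tested. It was -0.40 at P0 against E16.5, beside -0.01, and 0.45 at P3 against P0, beside 0.05. Equal library totals moved the median of all genes to 0.84, 0.68 and -0.86 in these 3 comparisons, and that of the members to 1.21, 0.25 and -0.37. The split of called members moved with it: at P0 against E16.5 it was 15 higher and 19 lower with TMM factors, 16 and 16 with median-of-ratios factors and 19 and 8 with equal totals. At P3 against P0 it was 17 and 17, 15 and 19, and 6 and 23. Members called in the same direction under all 4 scalings numbered 30 at E16.5 against E13.5 (27 higher, and Tex2, Tex10 and Spata24 lower), beside 70.0% of all genes tested (45.4% higher, 24.6% lower). They numbered 21 at P0 against E16.5 (13 higher, 8 lower), beside 42.9% (27.5% and 15.4%), and 22 at P3 against P0 (6 higher, 16 lower), beside 56.8% (20.4% and 36.4%).

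**Figure D2:**
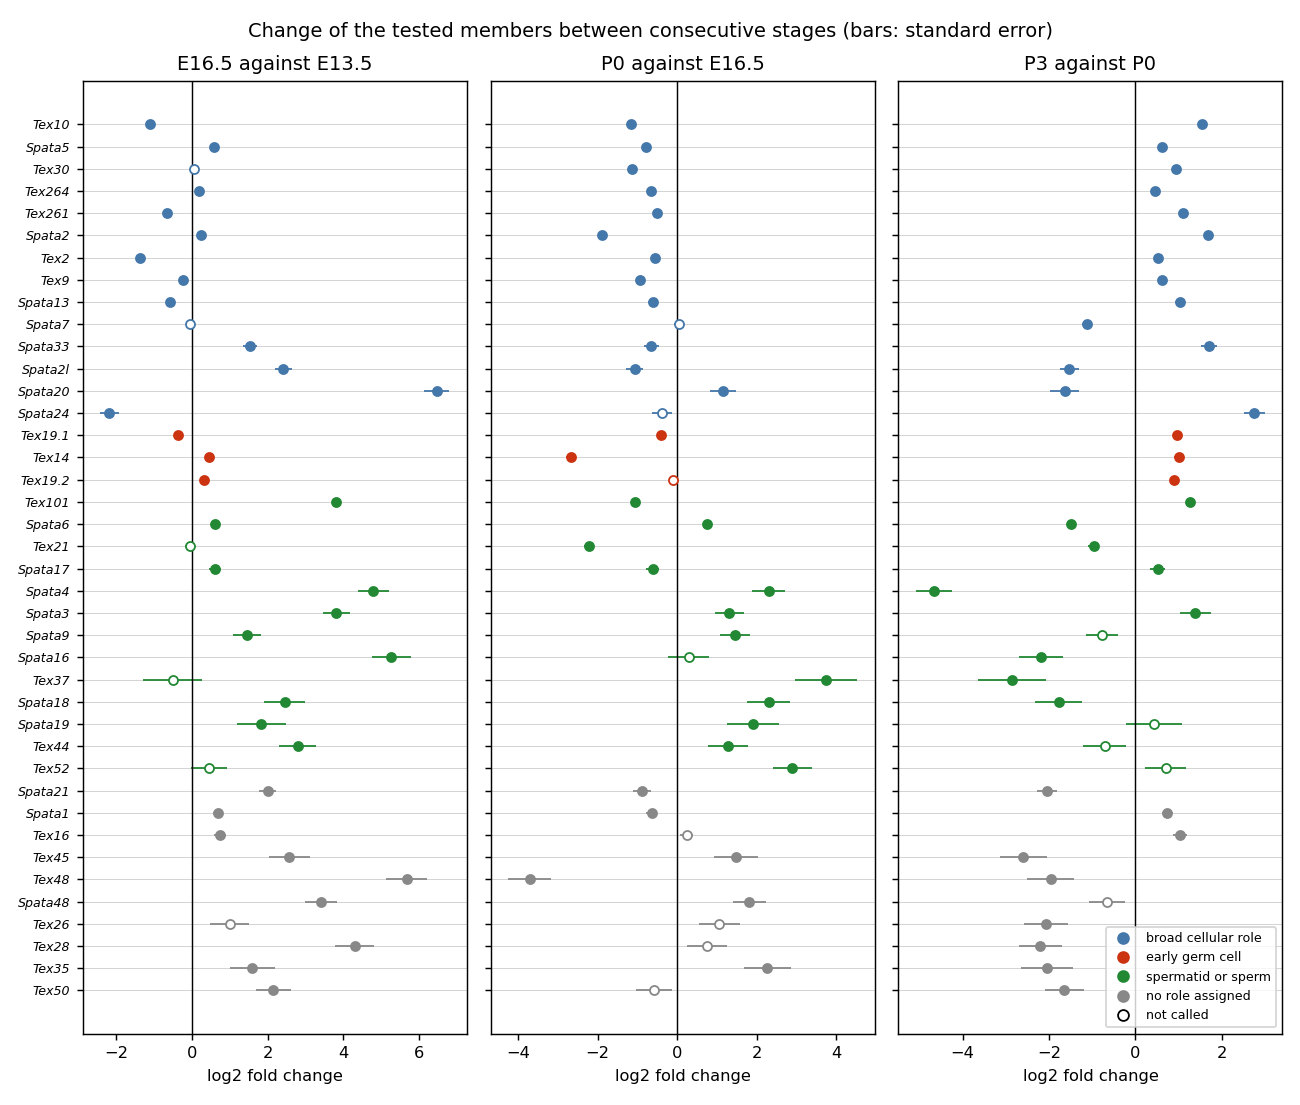
Log2 fold change (x axis) of the 40 tested members (rows, grouped by known role) in 3 panels, for E16.5 against E13.5, for P0 against E16.5 and for P3 against P0, under the scaling of the file. Filled points were called, open points were not, and bars are standard errors. In the first panel 27 members lie above 0 and are called, in the second 13, with most of the spermatid and sperm group to the right and most of the broad group to the left, and in the third 19.

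The 3 members known from early germ cells were among the most abundant. Tex19.1 (ENSMUSG00000039329, chromosome 11, 121146143 to 121148319, plus strand) encodes a mammal-specific protein that restrains retrotransposons in germ cells, and Tex19.2 (ENSMUSG00000039337, chromosome 11, 121116215 to 121118677, minus strand) is its neighbouring paralog. In libraries 1, 3 and 4 of each stage, Tex19.1 had 24838, 22641 and 22304 (E13.5), 18180.2, 18532 and 17189 (E16.5), 11908, 15186 and 13553 (P0) and then 26175, 25796 and 27179.7 (P3). The libraries of P3 and E13.5 were all above those of E16.5 and P0, which did not overlap with each other. Per kb of exon the stage means were 12426, 9598, 7238 and 14094, the highest of any member at 3 stages in all libraries. At E16.5 its libraries overlapped with those of Tex101, which was above it in 1 of the 3. Tex19.1 rose by 0.55 on the log2 scale (SE 0.08, adjusted p = 1.11e-05) at P3 against E16.5 and was called higher under all 4 scalings (0.37 to 0.55). Its differences between consecutive stages depended on the scaling: at P0 against E16.5 the log2 fold change was -0.41 in the file's scaling and 0.25 with equal totals.

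Tex19.2 had 6198, 6188 and 6151 (E13.5), 8619.7, 7190.4 and 7365 (E16.5), 6760.1, 7333 and 7313 (P0) and then 13509, 13093 and 13462 (P3). Its libraries at P3 were the highest, with no overlap, and those of E16.5 and P0 overlapped. Tex19.2 rose by 0.32 on the log2 scale (SE 0.071, adjusted p = 6.50e-04) at E16.5 and rose by 0.91 on the log2 scale (SE 0.071, adjusted p = 5.56e-09) at P3 against P0, the latter called under 3 of 4 scalings (0.064 to 0.91). Against E16.5 the P3 level was higher under every scaling (0.61 to 0.79). In the file's scaling and with TMM and median-of-ratios factors E13.5 was the lowest stage of Tex19.2 and the second highest of Tex19.1, whereas with equal totals both had the order P3, P0, E16.5, E13.5. Per kb Tex19.1 stood at 12426 against 3020 for Tex19.2 at E13.5, and at 14094 against 6527 at P3. Of their exon words of 50 bases, 2.67% of those of Tex19.1 also occur in Tex19.2, so few reads could be split between them.

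Tex14 (ENSMUSG00000010342, chromosome 11, 87405065 to 87555823, plus strand) encodes a protein of the intercellular bridges that join sister germ cells after incomplete division, where it holds off the abscission factor CEP55. Tex14 had 11780.2, 10548 and 10715 (E13.5), 14110.4, 17981 and 13671 (E16.5), 2585, 2347 and 2168 (P0) and then 4371, 4598 and 5271 (P3). All libraries of E13.5 and E16.5 lay far above those of P0 and P3, with no overlap between any pair of stages. Tex14 rose by 0.46 on the log2 scale (SE 0.10, adjusted p = 6.02e-04) at E16.5 and then fell by 2.68 on the log2 scale (SE 0.10, adjusted p = 2.96e-12) at P0, a fall under every scaling (-2.68 to -2.02). At P3 it was still below E16.5 in all libraries (log2 fold change -1.68, adjusted p = 3.11e-10; -1.86 to -1.68 over the scalings). Against P0 the P3 level of Tex14 was 2.01-fold higher in mean (adjusted p = 1.51e-07), a call that was lost with equal totals (log2 fold change 0.16). The other genes of the bridge and midbody, where a dividing cell is pinched off, moved in the directions of Tex14 at P0 and at P3 against P0, but in the opposite one at E16.5. The 8 on the list were Cep55, Kif23, Racgap1, Rbm44, Anln, Ect2, Prc1 and Aurkb. All 8 were called lower at E16.5 (median log2 fold change -1.60, beside 0.31 over all genes), as were 34.6% of all genes tested. All 8 were also lower at P0 against E16.5 (median -1.06, beside 33.4% of all genes lower). At P3 against P0 all 8 were higher (median 2.38, beside 40.1% of all genes higher). With equal totals the last held for 8 of 8, whereas 6 of 8 were called lower at E16.5 and 5 of 8 at P0. In the same order 4577, 5506 and 3443 of 23221 genes were so called with equal totals. Cep55 averaged 3887 (E13.5), 1954 (E16.5), 399.5 (P0) and then 4397 (P3). At P3 against E16.5 all 8 were called higher (median 1.30, beside 34.2% of all genes higher), and 7 of 8 with each other scaling, while Tex14 was lower under all 4. Over all genes, 7260 of 22615 were higher there with TMM factors, 6634 of 22735 with median-of-ratios factors and 6730 of 23221 with equal totals.

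Tex101 (ENSMUSG00000062773, chromosome 7, 24668007 to 24676675, minus strand) encodes a surface glycoprotein of germ cells that sperm need to enter the oviduct, and it is listed here with the sperm genes. Tex101 had 1070.3, 1171 and 1141 (E13.5), 17537, 14919 and 14759 (E16.5), 7782, 7125 and 7607 (P0) and then 19235, 18593 and 16678 (P3). Its E13.5 libraries were far below all others, and those of P0 lay between them and the libraries of E16.5 and P3, which overlapped. The mean went from 1127 ± 51.6 (SD, n = 3) at E13.5 to 15738 ± 1559.6 at E16.5, a rise of 14.0-fold (log2 fold change 3.80, SE 0.08, adjusted p = 8.28e-16). Tex101 fell by 1.06 on the log2 scale (SE 0.08, adjusted p = 6.14e-09) at P0 and rose by 1.27 on the log2 scale (SE 0.08, adjusted p = 2.93e-10) at P3, in the same directions under all 4 scalings (-1.06 to -0.40 and 0.43 to 1.27). The P3 level differed from E16.5 by 0.21 (adjusted p = 0.0281), a call that was lost with TMM factors (0.13), median-of-ratios factors (0.026) and equal totals (0.032), in a fit of these stages alone (adjusted p = 0.0634), and when E16.5 library 3 (0.17), E16.5 library 4 (0.17), P3 library 1 (0.17) or P3 library 3 (0.19) was left out. From E16.5 on Tex101 alone made up most of the summed level of the 25 sperm members, which was 3955 to 4072 (E13.5), 18432 to 21512 (E16.5), 11986 to 12546 (P0) and then 18535 to 21283 (P3).

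**Figure D3:**
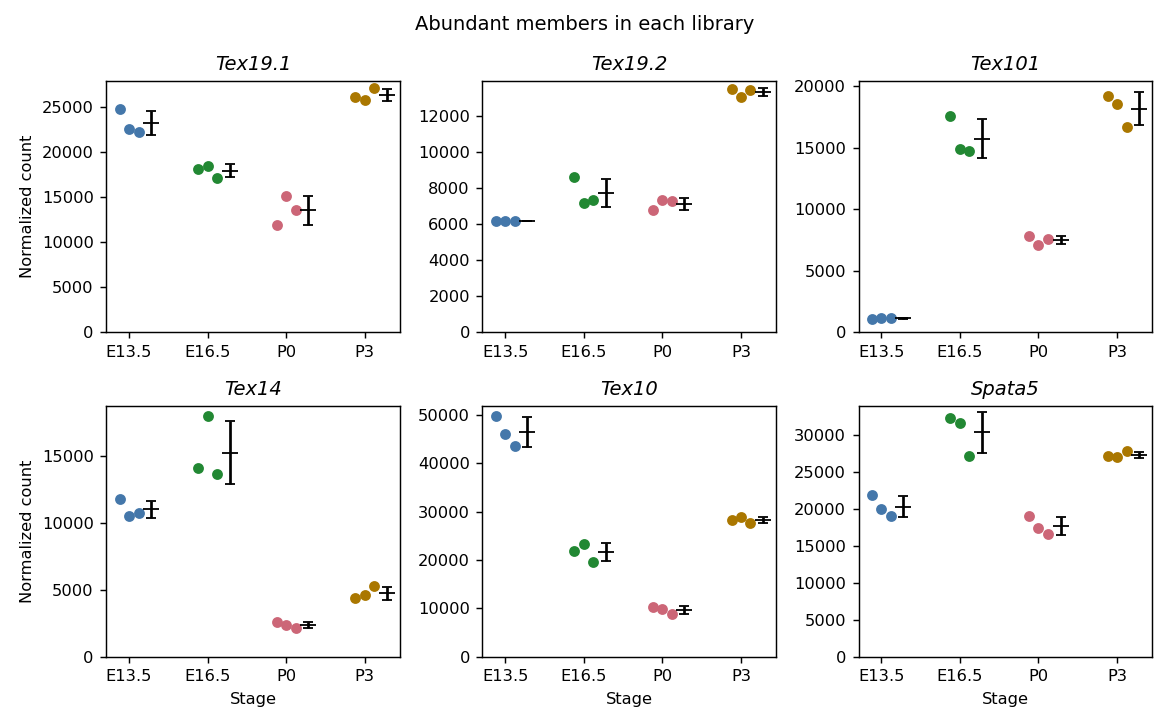
Normalized counts (y axis, from 0) of Tex19.1, Tex19.2, Tex101, Tex14, Tex10 and Spata5 in each library (points) by stage (x axis), with the mean and SD of the 3 libraries beside them. Tex101 was at 1070 to 1171 at E13.5 and at 14759 to 17537 at E16.5, Tex14 was highest at E16.5 and Tex10 at E13.5.

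Because levels of members ranged so widely, the DNA before their start sites was compared. RefSeq promoter windows in GRCm38.p6, each with 250 bases before and 50 after a start, were found for 49 of the 54 members, 61 windows in all. The 4 sequences below are the 250 bases before the start of Tex19.1 (chr11:121145893-121146142, plus strand), Tex19.2 (chr11:121118678-121118927, minus strand), Tex101 (chr7:24672051-24672300, minus strand) and Spata4 (chr8:54600531-54600780, plus strand), written 5′ to 3′ in the direction of the gene with each CG dinucleotide in capitals. For Tex101 this is the start of the shorter GENCODE transcript, inside an intron of the longer one. The sequences are shown because the Tex19 paralogs differ in level and in CG number, and because Tex101 and Spata4 rose steeply before birth, the one to a high and the other to a low level.
Tex19.1: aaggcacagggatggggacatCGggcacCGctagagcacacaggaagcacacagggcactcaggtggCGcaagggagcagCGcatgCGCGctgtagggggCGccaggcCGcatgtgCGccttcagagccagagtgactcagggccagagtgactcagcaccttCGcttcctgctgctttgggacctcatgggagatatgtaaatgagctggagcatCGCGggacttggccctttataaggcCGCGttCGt
Tex19.2: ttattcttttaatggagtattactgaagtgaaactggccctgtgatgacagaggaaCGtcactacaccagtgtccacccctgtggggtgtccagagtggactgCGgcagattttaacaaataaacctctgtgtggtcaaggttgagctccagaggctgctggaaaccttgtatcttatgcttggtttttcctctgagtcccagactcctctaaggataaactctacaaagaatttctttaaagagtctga
Tex101: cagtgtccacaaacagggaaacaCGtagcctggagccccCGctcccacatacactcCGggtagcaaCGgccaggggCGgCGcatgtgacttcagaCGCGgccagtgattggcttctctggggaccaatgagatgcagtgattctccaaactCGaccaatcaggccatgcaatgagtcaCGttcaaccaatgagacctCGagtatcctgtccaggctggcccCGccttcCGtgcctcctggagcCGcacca
Spata4: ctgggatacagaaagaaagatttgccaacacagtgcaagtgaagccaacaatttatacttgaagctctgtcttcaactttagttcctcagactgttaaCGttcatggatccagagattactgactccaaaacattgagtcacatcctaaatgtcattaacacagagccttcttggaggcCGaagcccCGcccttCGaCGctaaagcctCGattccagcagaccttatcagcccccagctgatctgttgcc
The stretch before Tex19.1 holds 15 CG and that before Tex19.2 holds 2. Tex101 has 14 and Spata4 has 6.

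Over the whole windows, members with a stage mean of at least 100 (27 windows of 23 genes) had a median of 20 CG, and those under 100 in every stage (34 windows of 26 genes) had a median of 4. The same split over all protein-coding genes gave medians of 19 and 3, so this difference is not particular to Tex and Spata genes. At least 15 CG were present in 70.4% of the windows of the higher members, beside 64.2% in the table, and in 5.88% of those of the lower members, beside 13.1%. Tex19.2 (2 CG in its window), Tex16 (0), Spata21 (3) and Spata20 (4) were members at 100 or more with few CG, and Spata18 (30) and Tex26 (15) were the members under 100 with many. Those 6 were named after their values were seen. The E-box letters CACGTG occur in 3 of the 61 windows (4.92%, beside 7.15% of all 32851 windows), those of Tex10, Spata16 and Tex36. The E2F-type letters GGCGGGAA occur in 3 (4.92%, beside 2.19%), those of Tex14, Spata5 and Tex26, and the cAMP response element TGACGTCA in 1 (1.64%, beside 1.79%), that of Spata7. Both strands were searched, the first and last of these motifs share the letters ACGT, and a match is a description of letters and not of a bound site.

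**Figure D4:**
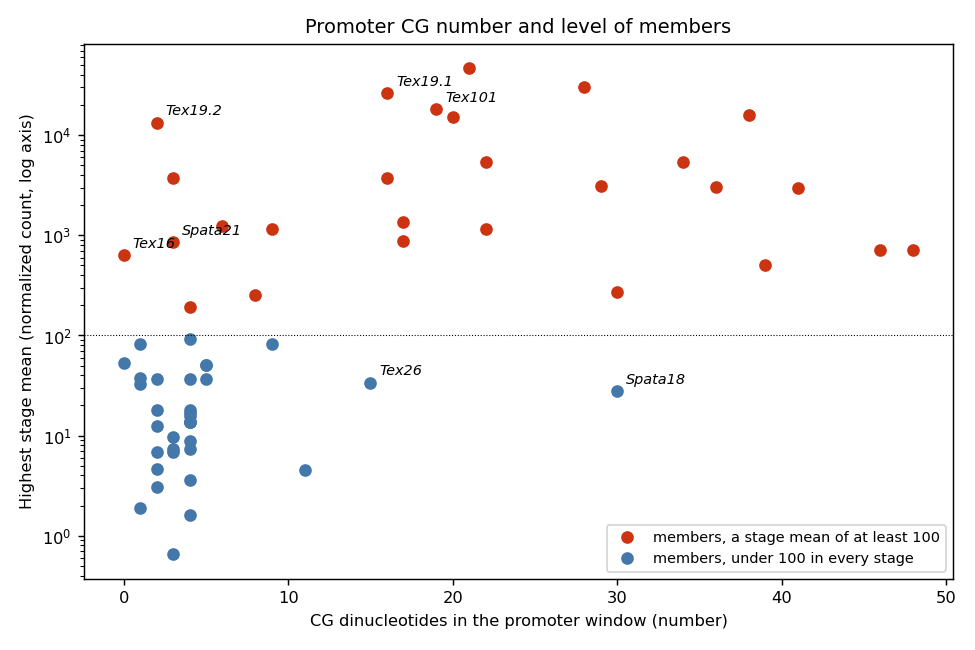
Number of CG dinucleotides in each RefSeq promoter window of a member (x axis) against the highest stage mean of that gene (y axis, log scale). Points at or above 100 normalized counts have a median of 20 CG and points below it a median of 4. Tex19.2 and Tex16 lie high with 2 and 0 CG.

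The 14 members listed with broad cellular roles were mostly lower at P0 and higher again at P3. At E16.5 against E13.5, 6 rose and 6 fell, beside 45.5% and 34.6% of all genes tested. At P0 against E16.5, 1 rose and 11 fell, beside 27.6% and 33.4%. At P3 against P0, 11 rose and 3 fell, beside 40.1% and 36.4%. Spata33, whose known role is in sperm, is on this list, and Spata18, of mitochondrial quality control, on the sperm list. With these exchanged, 6 broad members rose and 6 fell at E16.5, 2 rose and 10 fell at P0 and 10 rose and 4 fell at P3. Under all 4 scalings, with the lists as they stand, the same held for 6 rises and 3 falls at E16.5, beside 45.4% and 24.6% of all genes tested. It held for 1 rise and 4 falls at P0, beside 27.5% and 15.4%, and for 5 rises and 3 falls at P3, beside 20.4% and 36.4%. Their summed level was 94856 to 105109 (E13.5), 76207 to 86604 (E16.5), 40574 to 46422 (P0) and then 82576 to 85145 (P3), and Tex10 and Spata5 made up most of it. Tex10 (ENSMUSG00000028345, chromosome 4, 48430858 to 48473459, minus strand) encodes a partner of the pluripotency factor SOX2 and a subunit of a complex that acts in ribosome maturation. Tex10 had 49859, 46038 and 43646 (E13.5), 21948, 23316 and 19626 (E16.5), 10394, 9830.1 and 8835 (P0) and then 28250.3, 28849.7 and 27609 (P3). No pair of stages overlapped, and the order E13.5, P3, E16.5, P0 was the same under the 4 scalings. Tex10 fell by 1.11 on the log2 scale (SE 0.079, adjusted p = 1.26e-09) at E16.5, fell by 1.16 on the log2 scale (SE 0.079, adjusted p = 2.01e-09) at P0 and rose by 1.55 on the log2 scale (SE 0.079, adjusted p = 2.45e-11) at P3. Under other scalings these differences were -1.11 to -0.60, -1.16 to -0.50 and 0.71 to 1.55. Against P0, E13.5 was 4.80-fold higher in mean level, and 2.14-fold with equal totals.

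Spata5 (ENSMUSG00000027722, chromosome 3, 37419896 to 37579096, plus strand) encodes an ATPase that acts in the maturation of the large ribosomal subunit. Spata5 had 21791, 19909 and 19018 (E13.5), 32207, 31636 and 27185 (E16.5), 18981, 17422 and 16621 (P0) and then 27111, 27047 and 27734 (P3). The libraries of E16.5 lay above those of E13.5 and P0, and the lowest library of E13.5 (19018) was just above the highest of P0 (18981). Spata5 rose by 0.58 on the log2 scale (SE 0.078, adjusted p = 3.15e-06) at E16.5, under every scaling (0.58 to 1.09). It fell by 0.78 on the log2 scale (SE 0.078, adjusted p = 2.26e-07) at P0, where equal totals left -0.11, and the rise at P3 of 0.63 turned to -0.21 with equal totals. Between E13.5 and E16.5 Tex10 and Spata5 thus moved in opposite directions under all 4 scalings.

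Tex30 had 16274, 15306 and 14722 (E13.5), 16906, 15648 and 15158 (E16.5), 7803, 7348 and 6684 (P0) and then 15256, 14657 and 12402 (P3), lower at P0 than in any library of another stage. Tex30 fell by 1.13 on the log2 scale (SE 0.084, adjusted p = 5.68e-09) at P0 under the file's scaling and was lower under all 4 (-1.13 to -0.47). Gm29247, an annotated gene on the same strand, overlaps 17.5% of the exon bases of Tex30 and shares part of its sequence, so its count is uncertain to that extent. Spata2, which ties the deubiquitinase CYLD to the linear ubiquitin ligase complex, had 2706, 2470.1 and 2581 (E13.5), 2781, 3523 and 2892 (E16.5), 847, 921 and 723 (P0) and then 2569.9, 2614 and 2802 (P3). Its P0 libraries were far below those of every other stage, which lay close together. Spata2 fell by 1.88 on the log2 scale (SE 0.10, adjusted p = 1.04e-10) at P0 and rose by 1.69 on the log2 scale (SE 0.10, adjusted p = 1.64e-10) at P3, in these directions under all scalings (-1.88 to -1.22 and 0.85 to 1.69).

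Tex2, a lipid transfer protein of membrane contact sites, had 3247, 2917 and 2836 (E13.5), 1031, 1295 and 1171 (E16.5), 774, 846 and 754 (P0) and then 1078, 1148 and 1208 (P3). The E13.5 libraries stood above all others, and those of E16.5 and P3 overlapped. Tex2 fell by 1.37 on the log2 scale (SE 0.095, adjusted p = 8.83e-10) at E16.5, under all scalings (-1.37 to -0.86). Its further difference at P0 was -0.55 under the file's scaling and 0.11 with equal totals. Tex261, of the early secretory pathway, had 2936, 3048 and 3407 (E13.5), 2164, 1855 and 1973 (E16.5), 1563, 1380.2 and 1263 (P0) and then 2955, 3097 and 2984 (P3). Its P3 libraries were above those of E16.5 and P0 and overlapped with E13.5. Tex261 rose by 1.11 on the log2 scale (SE 0.09, adjusted p = 7.87e-09) at P3 against P0 and was higher there under all scalings (0.27 to 1.11).

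Tex264, a receptor for the autophagy of endoplasmic reticulum, had 4499, 4526 and 5021 (E13.5), 6239, 5149 and 4761 (E16.5), 3474, 3307 and 3343 (P0) and then 4727, 4529 and 4709.8 (P3). Its P0 libraries were the lowest, and E13.5 overlapped with both E16.5 and P3, but with equal totals E13.5 was the lowest stage and P0 was 0.70 above it on the log2 scale. Tex9 had 1363, 1319.9 and 1382 (E13.5), 1179, 1108 and 1150.0 (E16.5), 619.8, 574 and 592 (P0) and then 1018, 922 and 808 (P3), and 32.3% of its exon bases lie opposite Mns1. From E16.5 to P0 it fell under all 4 scalings (-0.94 to -0.28). Spata13, a guanine nucleotide exchange factor, had 1311, 1025 and 1148 (E13.5), 754, 838 and 749.5 (E16.5), 482, 577 and 480.2 (P0) and then 957, 1009.5 and 1199 (P3). It was highest at E13.5 and P3, which overlapped, and lowest at P0, which overlapped with no other stage, although with equal totals P0 was at 0.06 against E16.5.

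Spata7, known from the connecting cilium of photoreceptors, was at one level until birth under the file's scaling and lower at P3. Spata7 had 853, 924 and 836 (E13.5), 682, 955 and 918 (E16.5), 881, 915 and 813 (P0) and then 398, 389 and 418 (P3). Up to P0 the stages overlapped, with log2 fold changes of -0.046 and 0.044 that were not called, and every P3 library lay below them. The level course up to birth depended on the scaling, and with each other scaling P0 was the highest stage of Spata7. Over the 4 scalings its log2 fold change was -0.0026 to 1.17 at P0 against E13.5 (called under 3). At P0 against E16.5 it was 0.044 to 0.71 (called under 2). Spata7 fell by 1.11 on the log2 scale (SE 0.12, adjusted p = 2.34e-07) at P3 against P0 (-1.95 to -1.11 over the scalings). Spata2l, the paralog of Spata2, had 57.0, 56.6 and 44.2 (E13.5), 264, 322 and 264 (E16.5), 172, 115 and 121 (P0) and then 52.3, 41.2 and 44.5 (P3). Its E16.5 libraries were the highest and those of E13.5 and P3 overlapped. Spata2l rose by 2.41 on the log2 scale (SE 0.22, adjusted p = 3.17e-08) at E16.5 and fell by 1.53 on the log2 scale (SE 0.22, adjusted p = 9.43e-06) at P3, while Spata2 moved the other way at P3. An antisense overlap with Cdk10 covers 11.6% of its exon bases.

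Spata33, which links calcineurin to sperm mitochondria, had 74.9, 81.6 and 90.4 (E13.5), 287, 195 and 242 (E16.5), 192, 146 and 125 (P0) and then 528, 522 and 458 (P3). Its P3 libraries were the highest and its E13.5 libraries the lowest, with no overlap. Spata33 rose by 1.53 on the log2 scale (SE 0.19, adjusted p = 1.13e-06) at E16.5 and rose by 1.72 on the log2 scale (SE 0.19, adjusted p = 3.34e-07) at P3 under the file's scaling, and was higher in both under all 4. Spata24 had 138, 169.8 and 123 (E13.5), 32.4, 28.8 and 30.9 (E16.5), 29.2, 22.8 and 18.8 (P0) and then 172, 169.9 and 149 (P3), high at the ends of the series and low between. Spata24 fell by 2.18 on the log2 scale (SE 0.25, adjusted p = 4.05e-07) at E16.5 and rose by 2.76 on the log2 scale (SE 0.25, adjusted p = 2.63e-08) at P3, the highest rise of the named members there, and kept both directions under every scaling (-2.18 to -1.68 and 1.94 to 2.76). A second annotated model, SPATA24, overlaps 41.9% of its exon bases on the same strand, so reads may be divided between them.

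Spata20 (ENSMUSG00000020867, chromosome 11, 94478904 to 94486179, minus strand) was the only member of the broad list with no read at the first stage. It was also the 1 member of that list that rose at P0 against E16.5. Its place on the broad list was not tested, and it was not among the members exchanged above. Spata20 had 0 in all 3 (E13.5), 129, 59.5 and 86.3 (E16.5), 208, 176 and 199.8 (P0) and then 71.7, 63.8 and 51.6 (P3). The stages did not overlap except that P3 and E16.5 shared a range. Against a floor of 3 reads per library at E13.5, it was at least 28.6-fold higher at E16.5 and at least 60.9-fold higher at P0. It rose by 1.15 on the log2 scale (SE 0.33, adjusted p = 0.00644) at P0 and fell by 1.63 on the log2 scale (SE 0.33, adjusted p = 2.66e-04) at P3, with the same directions under all 4 scalings.

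Of the 25 members known from spermatids and sperm, 13 could be tested. At E16.5 against E13.5, 10 rose and 0 fell, beside 45.5% and 34.6% of all genes tested. At P0 against E16.5, 9 rose and 3 fell, beside 27.6% and 33.4%. At P3 against P0, 3 rose and 6 fell, beside 40.1% and 36.4%. All 10 rises at E16.5, all 9 at P0 and all 6 falls at P3 were called under each of the 4 scalings, and of the 3 rises at P3 only that of Tex101. Over all genes tested, 45.4% rose at E16.5, 27.5% rose at P0 and 36.4% fell at P3 under all 4. Among the rises at P0, Tex37 and Spata18 had passed the filter only through P0. With Spata33 in place of Spata18, 10 rose and 0 fell at E16.5, 8 rose and 4 fell at P0 and 4 rose and 5 fell at P3. Among these 13 the 3 that fell at P0 were Tex21, Tex101 and Spata17, of which Spata17 was at 0.05 with equal totals. The medians of the 13 were 1.83, 1.32 and -0.77, and the first becomes 0.62 with 5 genes set at their lower bounds. Spata4 (ENSMUSG00000031518, chromosome 8, 54600781 to 54610098, plus strand) had 0, 2.18 and 1.05 (E13.5), 64.9, 48.4 and 41.2 (E16.5), 270.5, 268 and 226 (P0) and then 7.75, 7.86 and 12.1 (P3). No pair of stages overlapped. Spata4 was at least 16.1-fold higher at E16.5 than the floor of 3 reads at E13.5, and at P0 at least 79.8-fold higher than that floor. It rose by 2.31 on the log2 scale (SE 0.42, adjusted p = 1.49e-04) from E16.5 to P0 and fell by 4.66 on the log2 scale (SE 0.42, adjusted p = 2.73e-08) at P3, and over the scalings the differences were 2.31 to 2.97 and -5.48 to -4.66. A transcript on the opposite strand, 5330439A09Rik, overlaps 11.1% of its exon bases.

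Spata6 (ENSMUSG00000034401, chromosome 4, 111719984 to 111829184, plus strand), needed for the connecting piece between sperm head and tail, rose from an already high level. Spata6 had 1519, 1405 and 1377 (E13.5), 2325, 2335 and 1967 (E16.5), 3742, 3838 and 3618 (P0) and then 1359.6, 1342 and 1295 (P3). The P0 libraries were the highest, then those of E16.5, E13.5 and P3, with no overlap. Spata6 rose by 0.62 on the log2 scale (SE 0.08, adjusted p = 2.12e-06) at E16.5, rose by 0.76 on the log2 scale (SE 0.08, adjusted p = 4.15e-07) at P0 and fell by 1.49 on the log2 scale (SE 0.08, adjusted p = 4.70e-11) at P3, in these directions under all scalings (0.62 to 1.13, 0.76 to 1.42 and -2.33 to -1.49). Unlike Spata4 and Spata20, it had 1433 ± 75.4 (SD, n = 3) at E13.5 and 1332 ± 33.7 at P3.

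Spata16, needed to form the acrosome, had 4.22, 0 and 0 (E13.5), 74.4, 69.7 and 54.6 (E16.5), 70.5, 88.6 and 85.4 (P0) and then 17.4, 18.7 and 15.2 (P3). Libraries of E16.5 and P0 overlapped and lay above the others. It rose by 5.26 on the log2 scale (SE 0.52, adjusted p = 6.90e-08) at E16.5, was not called at P0 (log2 fold change 0.30, adjusted p = 0.634), and fell by 2.19 on the log2 scale (SE 0.52, adjusted p = 0.00106) at P3, a call that was lost with a pseudocount of 0.1 (-2.24, adjusted p = 0.0834). Spata3 had 0 in all 3 (E13.5), 15.3, 13.0 and 11.1 (E16.5), 39.7, 29.9 and 32.8 (P0) and then 112, 81.5 and 81.0 (P3), with P3 above P0, P0 above E16.5 and no overlap. Spata3 rose by 1.32 on the log2 scale (SE 0.36, adjusted p = 0.00451) at P0, and its mean at P3 was 6.98-fold that at E16.5 (log2 fold change 2.71, SE 0.36, adjusted p = 4.04e-06). Thus Spata3 kept rising after birth under the file's scaling, where Spata4, Spata6 and Spata16 fell, and with equal totals its difference at P3 against P0 was 0.57 and not called.

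Tex21 had 1256, 1267 and 1232 (E13.5), 1185, 1187 and 1256 (E16.5), 254, 229 and 304 (P0) and then 158, 125 and 121 (P3). Libraries of E13.5 and E16.5 overlapped, while those of P0 and P3 were far below them and apart from each other. Tex21 fell by 2.21 on the log2 scale (SE 0.13, adjusted p = 2.36e-10) at P0 and fell by 0.96 on the log2 scale (SE 0.13, adjusted p = 3.25e-06) at P3, and was lower in both under every scaling (-2.21 to -1.55 and -1.79 to -0.96). Spata17 had 172, 182 and 172 (E13.5), 216, 315 and 284 (E16.5), 161, 169.5 and 196 (P0) and then 266, 267 and 221 (P3), a range in which P3 overlapped with E16.5. Spata9 had 7.39, 13.1 and 10.5 (E13.5), 51.5, 17.7 and 26.9 (E16.5), 90.3, 77.2 and 78.2 (P0) and then 52.3, 41.2 and 49.6 (P3). Its P0 libraries were the highest, and it rose by 1.46 on the log2 scale (SE 0.37, adjusted p = 0.00276) at P0 (1.46 to 2.11 over the scalings). At P3 against P0 its difference was not called under the file's scaling (log2 fold change -0.77, SE 0.37, adjusted p = 0.0689). It was called lower there under the 3 other scalings (-1.60 to -0.77 over all 4).

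**Figure D5:**
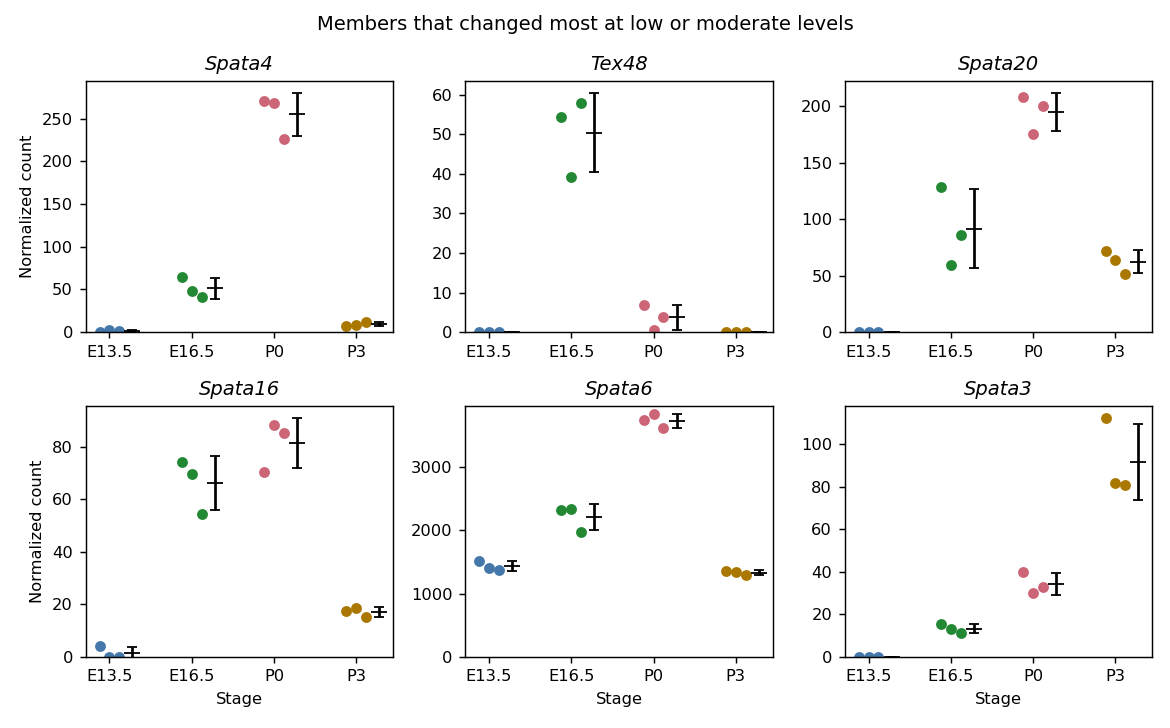
Normalized counts (y axis, from 0) of Spata4, Tex48, Spata20, Spata16, Spata6 and Spata3 in each library (points) by stage (x axis), with the mean and SD of the 3 libraries beside them. Spata4, Spata20 and Spata6 are highest at P0, Tex48 is near 0 outside E16.5, and Spata3 is highest at P3.

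The 12 members without an assigned role, 10 of them tested, moved in several ways. At E16.5 against E13.5, 9 rose and 0 fell, beside 45.5% and 34.6% of all genes tested. At P0 against E16.5, 3 rose and 3 fell, beside 27.6% and 33.4%. At P3 against P0, 2 rose and 7 fell, beside 40.1% and 36.4%. Tex48 (ENSMUSG00000058935, chromosome 4, 63607089 to 63622428, minus strand) was nearly confined to 1 stage in these libraries, with 0 in all 3 (E13.5), 54.4, 39.1 and 57.8 (E16.5), 6.79, 0.543 and 3.86 (P0) and then 0 in all 3 (P3). At E16.5 it was at least 15.8-fold above the floor of 3 reads at E13.5, and at P3 at least 17.0-fold below its E16.5 mean. Its log2 fold change at P0 against E16.5 was -3.71, and -3.71 to -3.24 over the scalings. Tex48 and Tex50, both among the 9 rises at E16.5, reached 10 counts only there and so passed the filter only through that stage. Their differences from E16.5 are therefore descriptions. Spata21 had 245, 246 and 162 (E13.5), 849, 904 and 816 (E16.5), 724, 427 and 330.1 (P0) and then 104, 122 and 113 (P3). It rose by 2.00 on the log2 scale (SE 0.23, adjusted p = 4.32e-07) at E16.5 and fell by 2.04 on the log2 scale (SE 0.23, adjusted p = 4.01e-07) at P3, under all scalings. At P0 its 3 libraries stood in the same order as the summed Leydig cell markers (6201, 3169 and 1133), and the Sertoli, mast and blood cell sums had that order too. So did the germ cell marker Ddx4 (24320, 23070 and 22151) and other members, among them Tex10, Tex14 and Spata33, so the order is not particular to Spata21. At E16.5 Spata21 was at 849, 904 and 816 beside Leydig sums of 623, 1236 and 7763. The part of any of these cells in its level was not tested.

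Tex16 had 167, 183 and 123 (E13.5), 239.5, 305 and 237 (E16.5), 316, 272 and 334 (P0) and then 613, 639 and 639.7 (P3). Its P3 libraries were the highest and its E13.5 libraries the lowest, and those of E16.5 and P0 overlapped. Tex16 rose by 0.73 on the log2 scale (SE 0.16, adjusted p = 5.18e-04) at E16.5, and at P3 against E16.5 it rose by 1.28 on the log2 scale (SE 0.16, adjusted p = 2.04e-06), both under all scalings (0.73 to 1.23 and 1.10 to 1.28). Tex45 had 2.11, 1.09 and 4.21 (E13.5), 21.9, 14.9 and 18.2 (E16.5), 39.7, 56.5 and 64.2 (P0) and then 22.3, 3.93 and 5.06 (P3), highest at P0. It fell by 2.59 on the log2 scale (SE 0.54, adjusted p = 3.89e-04) at P3. Its rise at P0 (log2 fold change 1.48) was called under all 4 scalings, but the call was lost when E16.5 library 3 (1.35), E16.5 library 4 (1.49), P0 library 3 (1.43) or P0 library 4 (1.34) was left out. That call was also lost with a pseudocount of 0.1 (1.53) and with no filter (1.48). Spata1 had 392, 422 and 430.1 (E13.5), 594, 829 and 597 (E16.5), 438, 432 and 409 (P0) and then 737, 802 and 620.5 (P3), with P0 and E13.5 in one range and P3 and E16.5 in another. With equal totals its mean at P0 (678) was instead near those of E16.5 (675) and P3 (638), above that of E13.5 (293).

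The other members had lower levels. Tex52 was detected mainly from birth on: it was at most 1.58 in any library up to E16.5, 9.43 ± 2.29 (SD, n = 3) at P0 and 15.8 ± 2.07 at P3. Spata48 had 0 in all 3 (E13.5), 10.5, 7.44 and 11.1 (E16.5), 34.5, 46.2 and 29.4 (P0) and then 14.5, 24.6 and 32.4 (P3), Spata18 had 0 in all 3 (E13.5), 3.82, 2.79 and 7.91 (E16.5), 39.7, 27.7 and 15.9 (P0) and then 15.5, 4.91 and 4.05 (P3) and Spata19 had 0 in all 3 (E13.5), 3.82, 8.37 and 0 (E16.5), 15.7, 9.78 and 12.5 (P0) and then 17.4, 25.5 and 11.1 (P3). All 3 had no read at E13.5 and were higher at P0 than at E16.5 under all 4 scalings, as were Tex35, Tex37, Tex44 and Tex52. Outside P0, Tex35 and Tex37 reached 10 counts in no library, and Spata18 only in P3 library 1 (15.5). Tex35, Tex37 and Spata18 thus passed the filter only through P0, where they were high, and their differences from P0 are descriptions. SPATA18 is a protein of mitochondrial quality control and SPATA19 one of sperm mitochondria. Tex28 had 0 in all 3 (E13.5), 18.1, 22.3 and 15.8 (E16.5), 27.7, 31.5 and 38.1 (P0) and then 1.94, 11.8 and 9.11 (P3), and Tex37 had 0, 6.53 and 6.31 (E13.5), 1.91, 5.58 and 0 (E16.5), 19.3, 48.4 and 45.4 (P0) and then 5.81, 4.91 and 2.02 (P3). Both were lower at P3 than at P0 under all 4 scalings, as were Tex26, Tex35 and Tex50, which had at most 45.9 counts in any library. The 14 members that were not tested had at most 14.5 in any library. Among them Tex38 had its highest values at the first stage, with 13.7, 9.79 and 5.26 (E13.5), 2.86, 0 and 2.37 (E16.5), 2.09, 3.26 and 1.45 (P0) and then 0, 0 and 2.02 (P3).

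Many members of low level had few or no reads at E13.5 and were detected at P0. With at most 3 reads in each of the 3 libraries taken as the floor, 23 of the 54 members were at the floor at E13.5 (42.6%, beside 30.0% of protein-coding genes), 8 at E16.5 (14.8%, beside 17.9%), 1 at P0 (1.85%, beside 13.4%) and 13 at P3 (24.1%, beside 23.4%). The member at the floor at P0 was Tex29. Of the 23, 16 were above the floor at E16.5 (69.6%, beside 42.0% of the 6567 protein-coding genes at the floor at E13.5), 22 at P0 (95.7%, beside 56.2%) and 13 at P3 (56.5%, beside 26.8%). Because size factors were largest at P0, 3 reads are worth 1.45 to 1.63 normalized counts there and 3.15 to 3.26 at E13.5. With the highest of these values, 3.26, taken as the floor in every library, 5 members were at or under it at P0, and 19 of the 23 were above it. The shares of protein-coding genes given above are for 3 reads and were not computed at this value, so these counts cannot be set against them. A count of 0 in a library allows up to 3 reads, and that limit covers counting error only.

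These levels were low. The 29 members under 100 normalized counts in every stage summed to 44.3, 55.5 and 46.3 (E13.5), 319.7, 268 and 268 (E16.5), 525, 536 and 544 (P0) and then 308, 287 and 268 (P3). The 3 P0 libraries thus lay close together and above all others. In the same 3 libraries the Sertoli markers summed to 21999.7, 20606 and 11567, the Leydig markers to 6201, 3169 and 1133, and 4 mast cell markers, at 0 in all E13.5 libraries, to 2277, 1679 and 999. The 5 peritubular markers summed to 2908, 2679 and 2806 there, about level as the low members were, and both had their highest sums at P0 and their lowest at E13.5. Spata18 was in the order of the Sertoli, Leydig, mast and blood cell sums at P0 (39.7, 27.7 and 15.9), an order that the germ cell marker Ddx4 had too (24320, 23070 and 22151). The part of any of those cells in the low members was not tested. Across all 54 genes, the stage with the highest mean was E13.5 for 9, E16.5 for 12, P0 for 22 and P3 for 11, and with equal totals 3, 11, 31 and 9. Among the 25 members that reached 100, 18 had the same highest stage under all 4 scalings, and 8 (Tex10, Tex14, Tex16, Tex101, Spata2, Spata4, Spata20 and Spata21) the same order of all stages.

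Other genes of spermatids, from a list of 26 that holds protamines, transition proteins and genes of the acrosome and tail, were set beside the members. Of these, 17 could be tested, and 10 rose and 3 fell at E16.5, beside 45.5% and 34.6% of all genes tested. At P0 against E16.5, 5 rose and 3 fell (27.6% and 33.4%), and at P3 against P0, 3 rose and 9 fell (40.1% and 36.4%). Their median log2 fold change was 2.84 at E16.5, or 1.51 with 6 genes at their lower bounds, beside 0.31 over all genes. It was 0.10 at P0 (beside -0.01) and -0.93 at P3 (beside 0.05). With equal totals 10 of 18 rose and 1 fell at P0, beside 12743 and 3443 of 23221 genes. At the floor were 14 of the 26 (E13.5), 6 (E16.5), 1 (P0) and then 6 (P3), beside 30.0%, 17.9%, 13.4% and 23.4% of protein-coding genes. The genes named from this list were picked after their values were seen. The 3 that fell at E16.5 were Odf2 (log2 fold change -2.07), Tssk6 (-2.97) and Rfx2 (-1.43), and Zpbp was highest at P3 (mean 271). Akap4, a scaffold of the sperm tail's fibrous sheath, had means of 1.09, 1038, 190 and 52.8 in order of stage. Akap4 was thus highest at E16.5, and its fall at P0 of -2.44 held under every scaling (to -1.78). Spem1, of late spermatids, was highest at P0, at 79.9, 72.3 and 71.4 in the 3 libraries. Odf1, of the outer dense fibres, had 4.59, 4.28, 120 and 108 in order of stage. Protamine genes stayed near 0: Prm1 averaged at most 2.59, Prm2 at most 2.85 and Prm3 at most 0.181 in any stage. Tnp1, a transition protein, averaged 1.42, 41.0, 60.0 and 46.6 in order of stage.

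Within 1 genotype tag, the comparison of P0 with E13.5 called 37 of the 40 tested members, 24 higher and 13 lower, beside 86.1% of all genes tested (45.7% higher and 40.5% lower). Of the 37, 31 differed by at least 1 on the log2 scale, beside 70.5% of all genes, and in 37 of the 40 the libraries did not overlap, beside 88.1%. The median was 1.23, or 1.05 with 12 genes at their lower bounds, beside 0.20 over all genes. All 24 that were higher were so called under each of the 4 scalings, and so were 6 that were lower (Tex2, Tex10, Tex14, Tex21, Spata2 and Spata24), beside 65.9% of all genes (45.6% higher and 20.3% lower). Of the broad members 3 rose and 10 fell, and of the 13 sperm members 11 rose and 1 fell, Tex21. Tex35, Tex37 and Spata18, all among the 24 that were higher, had passed the filter only through P0, and Tex37 and Spata18 are also among the 11. Their rises are descriptions. Tex101 rose by 2.73 on the log2 scale (SE 0.08, adjusted p = 9.95e-15) and Spata6 rose by 1.38 on the log2 scale (SE 0.08, adjusted p = 5.32e-11), whereas Tex10 fell by 2.26 on the log2 scale (SE 0.079, adjusted p = 7.98e-14) and Tex14 fell by 2.22 on the log2 scale (SE 0.10, adjusted p = 2.61e-12). Over the scalings these differences were 2.73 to 3.90 for Tex101, 1.38 to 2.55 for Spata6, -2.26 to -1.10 for Tex10 and -2.22 to -1.05 for Tex14.

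The comparison of P3 with E16.5, also within 1 tag, called 26, 13 higher and 13 lower, beside 69.5% of all genes (34.2% higher and 35.2% lower). Of the 26, 17 differed by at least 1 on the log2 scale, beside 45.3% of all genes, and in 25 of the 40 the libraries did not overlap, beside 71.6%. Its median of -0.06 lay beside -0.05 over all genes. Called in the same direction under all 4 scalings were 11 higher, among them Tex10, Tex16, Tex19.1, Tex19.2, Tex261, Spata3, Spata24 and Spata33, and 13 lower, among them Tex14, Tex21, Tex48, Spata4, Spata6, Spata7, Spata16, Spata21 and Spata2l, beside 64.5% of all genes (29.4% higher and 35.2% lower). That of Spata16 was lost with a pseudocount of 0.1 (-1.94). Of the 13 lower, Tex48 and Tex50 had passed the filter only through E16.5. Tex21 fell by 3.17 on the log2 scale (SE 0.13, adjusted p = 1.89e-12) and Spata21 fell by 2.91 on the log2 scale (SE 0.23, adjusted p = 6.12e-09), the called falls of most size after that of Tex48. At P3 the early germ cell pair Tex19.1 and Tex19.2 was thus above its E16.5 level and Tex14 below it.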

How the data were processed

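The members and the gene lists were chosen with earlier results of these data known. RNA libraries of 4 stages were made with SMART-seq v4 and TruSeq kits, per the labels' protocols. Reads were handled with bcl2fastq 2.20, cutadapt 1.18, HISAT2 2.1.0, featureCounts 1.5.2 and DESeq2 1.26.0 on mm10 (GRCm38), per the submitters' processing notes, and the strand setting is not given in the sources used here. The authors deposited a signal per gene, a read count divided by 1 size factor per library (relative log expression). Dividing each value by the smallest one in its library gave whole reads for 100% of values (tolerance 0.001). Of 55487 Ensembl IDs, 55141 (99.4%) had a symbol in the GENCODE annotation. Gene positions are from that annotation (GRCm38).

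Genes that reached 10 normalized counts in 3 or more libraries were fitted in R 4.3.3 by limma 3.58.1, using lmFit and a trended eBayes, on log2(normalized count + 1), with the 4 stages sharing 1 spread (8 residual degrees of freedom) and Benjamini-Hochberg adjustment over 22384 genes. Fold changes on that scale understate those of low genes. At most 3 reads in each library of a stage is the floor, against which only lower bounds of a fold are given. Columns were assigned to stages by name, and the library numbers 1, 3 and 4 are those of the columns. Alternatives were TMM, median-of-ratios and equal-total scaling, pseudocounts of 0.1 and 10, a filter at a mean of 100 or none, calls limited to log2 changes of 1 or more, fits without the other 2 stages, edgeR 4.0.16 and DESeq2 1.42.0 on whole reads, leaving out each library, and, added after seeing the data, a replicate block by column number. Values in every library are given for members with a role and a stage mean of at least 100, and for the 5 called members that rose most and the 5 that fell most in each consecutive comparison among those with a stage mean of at least 50. Other members named were chosen after their values were seen. The fits were tested on simulated data. Protein sequences were not used here.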

Additional observations from a re-analysis of the deposited data

How the results depend on the processing

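The counts of called members were recomputed with other factors, pseudocounts, filters and tests. With calls limited to log2 changes of 1 or more in size there were 21 members (E16.5 against E13.5), 20 (P0 against E16.5) and 17 (P3 against E16.5). A mean of at least 100 normalized counts tested 22 members and called 19 (E16.5 against E13.5), 19 (P0 against E16.5), 22 (P3 against P0), 19 (P0 against E13.5), 16 (P3 against E16.5) and 22 among the stages, since fewer genes were tested. The other settings kept these counts within 1.5 times. Leaving out 1 library at a time gave 29 to 34, 30 to 33, 35 to 36, 36 to 37 and 22 to 27 called members in the same order, and 40 in every fit among stages. The columns carry the numbers 1, 3 and 4 in every stage and the titles 1 to 3, so nothing ties a column to a titled replicate. Libraries with the same column number did not deviate together over genes (r of -0.036 to 0.042 over 18 pairs). A replicate block by column number, chosen after seeing the data, gave 33, 32, 35, 37 and 26 called members and 40 among the stages, and ended 2 named calls, both of Tex264 (P3 with E16.5, and E16.5 with E13.5).

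Of 129 named results of 30 members, 37 changed sign or lost their call under another scaling, and the cause was not tested. Calls were lost without a change of sign for 5 with TMM factors, 11 with median-of-ratios factors and 17 with equal totals, and 20 changed sign. With equal library totals, the log2 fold change at E16.5 against E13.5 was 0.26 for Tex9 and 0.13 for Tex19.1. At P0 against E16.5 it was 0.11 for Tex2, 0.25 for Tex19.1, 0.15 for Tex261, 0.021 for Spata1, 0.055 for Spata13, 0.045 for Spata17 and 0.011 for Spata33. At P3 against P0 it was -0.31 for Tex2, -0.22 for Tex9, -0.38 for Tex264, -0.093 for Spata1, -0.21 for Spata5 and -0.32 for Spata17. At P0 against E13.5 it was 0.38 for Tex19.1, 0.083 for Tex30, 0.0084 for Tex261, 0.70 for Tex264 and 0.97 for Spata5, and median-of-ratios factors gave 0.0090 for Tex264 and 0.28 for Spata5, where TMM factors gave 0.12. Both edgeR's and DESeq2's tests on whole reads kept all 129 calls. Leaving out a library ended 7 of them, a pseudocount of 0.1 ended 5, one of 10 ended 2, no filter 4, fits of 2 stages 3, and a limit of 1 on the log2 change 50. Members with few reads rest on counting error as well as on the spread between libraries, and 3 libraries a stage limit the precision.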

Other observations

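Per kb of exon, the most abundant members changed places between stages. At E13.5 the 3 highest stage means were those of Tex19.1 (12426), Tex10 (10615) and Tex30 (8014). At E16.5 Tex19.1 (9598) and Tex101 (9498) were level, with library ranges that overlap once divided by exon length, and Tex30 (8258) and Spata5 (7806), which overlapped too, followed. At P0 Tex19.1 (7238) was first in all libraries, Spata5 (4547) and Tex101 (4529) were level with overlapping libraries, and Tex30 (3779) was below both. At P3 Tex19.1 (14094) and Tex101 (10965) came first in all libraries, and Tex30 (7323) and Spata5 (7023) overlapped. Tex101 thus went from 680.4 per kb at E13.5 to the second place at P3. Within a stage these ranks do not depend on the size factor, which divides all genes of a library alike.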
